A study of Mus musculus with 4 samples.

Results

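The caudal ganglionic eminence (CGE) is a swelling of the embryonic ventral forebrain that produces GABAergic interneurons for the cortex, among them the cells that later make the serotonin-gated channel, calretinin or vasoactive intestinal peptide. Its progenitors and young neurons are known for the nuclear receptor Nr2f2, the homeodomain factor Prox1 and the receptor subunit Htr3a. These cells migrate into the cortex before birth, so RNA of dissected fetal cortex holds their transcripts diluted by projection neurons and glial progenitors. The 9 genes described here are regulators and markers of these interneurons, together with Nr2f1, the paralogue of Nr2f2. They were found by gene name among the 22770 genes of the deposited table.

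The values come from 2 cortex libraries of Pax6 sey/sey mutant mice and 2 of wild-type littermates at embryonic day 16.5, all on a mixed background of C57BL/6J, 129S6 and CD1. Pax6 codes for a paired-box and homeodomain factor made by progenitors of the cortex, and sey (small eye) is a point mutation in the gene itself, present in every cell of the animal. The labels do not say whether each library came from 1 embryo or from pooled ones, so the p-values measure the spread between these libraries, which may be technical in part. Pax6 RNA stood at 101 and 120 FPKM in the mutants, against 28.8 and 27.0 FPKM in the wild types. The mutation leaves a transcript, so that level does not check the genotype.

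FPKM is the number of fragments mapped to a gene, scaled to exon length and to library size. FPKM totals of the 4 libraries lay between 579698 and 593256, and the files give no fragment counts. A rough depth was read from the lowest values of long single-transcript genes, where 1 fragment was worth 0.0923 to 0.139 FPKM times kilobases. This corresponds to about 7200000 to 10800000 fragments per library, with a broad peak (30.7% to 33.4% of the genes near it lay within 0.1 of it on the log2 scale). Fragment numbers below are estimates of that kind. They use the combined exon length of all annotated transcripts of a gene, so they may be too high for genes with several transcripts. Of 6 projection neuron genes that mark cortex, all were present in every library and 5 fell in the mutants, with a summed level of 808 and 742 FPKM in the mutants, against 1254 and 1341 FPKM in the wild types. In bulk tissue, fewer cells of a type and less RNA per cell cannot be told apart.

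Of the 9 genes, 8 had at least 0.5 FPKM in all 4 libraries and were tested with limma on log2(FPKM + 0.5), with p-values adjusted by the Benjamini-Hochberg method over all 15399 tested genes. At an adjusted p under 0.05, 1 of the 8 passed, the RNA-binding protein gene Adarb2, and it was higher in the mutants. Over all tested genes 3.48% passed in either direction and 2.02% were called higher. Both mutant libraries lay above both wild types for 3 of the 8, Adarb2, Prox1 and Npas3, against 25.8% of all tested genes, and below both for 0 of the 8, against 25.8%. The other 5 overlapped between genotypes. The median log2 fold change of the 8 was 0.31, beside 0.0006 over all tested genes.

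The sequences upstream of the start of Adarb2 and Prox1 are shown because these are the members whose 95% intervals lay above 0. They are the 250 bases before the RefSeq start on GRCm38.p6, written 5′ to 3′ along the gene, and for Prox1 the RefSeq start nearest to the annotated gene start was taken. Capitals mark TAATTA, a core that many homeodomain proteins bind and that reads the same on both strands. The Adarb2 window is chr13:8202616-8202865 on the plus strand and the Prox1 window is chr1:190170828-190171077 on the minus strand.
Adarb2: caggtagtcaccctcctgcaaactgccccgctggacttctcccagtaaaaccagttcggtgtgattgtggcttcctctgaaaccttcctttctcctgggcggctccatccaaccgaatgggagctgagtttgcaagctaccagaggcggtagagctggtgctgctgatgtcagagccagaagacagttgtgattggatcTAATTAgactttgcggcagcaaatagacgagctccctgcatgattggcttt
Prox1: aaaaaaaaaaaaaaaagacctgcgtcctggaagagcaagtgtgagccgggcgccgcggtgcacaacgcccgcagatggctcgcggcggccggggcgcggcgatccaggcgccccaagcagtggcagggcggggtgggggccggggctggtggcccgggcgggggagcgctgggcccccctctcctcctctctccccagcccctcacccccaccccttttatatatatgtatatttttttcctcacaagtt

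The Adarb2 window held TAATTA once, beginning at base -51 counted from the start site, and the Prox1 window did not hold it. Promoter windows were matched for 7 of the 9 genes (9 windows, since Nr2f1 and Prox1 have several starts), all but Htr3a and Calb2. TAATTA stood in 1 of these 9 windows and in 4.84% of the 32851 windows of all genes. AGGTCA, the half-site of nuclear receptors such as Nr2f1 and Nr2f2, was searched on both strands and stood in 0 of the 9 windows and in 14.0% of all windows. The motifs do not overlap each other in these windows. A match is a description of letters only, and an absent match says only that those letters were not in the window.

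Among the transcription factors, the Nr2f pair differed most in level. Nr2f1 codes for an orphan nuclear receptor that is graded across the cortical progenitor sheet and takes part in setting the cortical areas, so its RNA is not limited to interneurons. It lies on chromosome 13 from 78188973 to 78199757 of GRCm38. Nr2f1 had 74.3 and 64.7 FPKM in the mutants, against 85.5 and 74.2 FPKM in the wild types. Mutant library 1 sat level with wild-type library 2, so the genotypes overlapped by a narrow margin. Its log2 fold change was -0.20 (95% interval -0.47 to 0.07, limma adjusted p = 0.380).

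Nr2f2, the nuclear receptor that marks CGE progenitors and their migrating daughters and is also made by venous endothelium, lies on chromosome 7 from 70351944 to 70366735. It had 8.75 and 5.91 FPKM in the mutants, against 6.04 and 5.01 FPKM in the wild types. Only mutant library 1 was above both wild types. The log2 fold change was 0.36 (95% interval -0.21 to 0.93, limma adjusted p = 0.448). Per length, Nr2f1 was 8.49 and 10.9 times as high as Nr2f2 in the mutants, against 14.1 and 14.8 times in the wild types. The ratio was lower in both mutants (p = 0.33 in an exact two-sided permutation test, the smallest value possible with 2 against 2 libraries). Nr2f6, a further member of the same receptor family, had 9.63 and 10.3 FPKM in the mutants, against 13.0 and 12.8 FPKM in the wild types (limma adjusted p = 0.150).

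Prox1, a homeodomain factor that CGE-derived interneurons keep as they migrate and mature, was higher in both mutants but missed the threshold. The gene lies on chromosome 1 from 190118035 to 190170714. Prox1 had 6.34 and 5.35 FPKM in the mutants, against 2.35 and 1.38 FPKM in the wild types, from about 440 and 490 fragments in the mutants and about 180 and 83 in the wild types. The lowest mutant library was above the highest wild type. The log2 fold change was 1.45 (SE 0.26, 95% interval 0.79 to 2.10, limma adjusted p = 0.0584). It did not pass in any of the 12 alternative settings, where its adjusted p ran from 0.0515 to 0.216 and its log2 fold change from 1.15 to 1.75.

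Prox1 is also made by dentate granule neurons and by thalamic neurons. In a list of 8 other dentate and hippocampal genes, 5 were tested, 0 rose and 1 fell (Neurod1), and the summed level was 27.8 and 26.0 FPKM in the mutants, against 36.0 and 36.4 FPKM in the wild types. Neurod1 carried that difference: without it the sum was 24.7 and 24.3 FPKM in the mutants, against 20.4 and 18.7 FPKM in the wild types. A log2 fold change above 0 was found for 4 of the 5 tested genes, beside 7715 of all 15399 tested genes. Wnt8b and Wnt3a were at or near 0 in every library. In a list of 7 thalamic genes, 5 were tested, 0 rose and 1 fell (Slc17a6), with a summed level of 11.8 and 10.7 FPKM in the mutants, against 22.1 and 25.8 FPKM in the wild types. Without Slc17a6, a gene of many glutamatergic neurons, the sum was 6.80 and 6.79 FPKM in the mutants, against 4.01 and 3.84 FPKM in the wild types. Both mutants lay above both wild types for 3 of the 5 tested genes, beside 25.8% of all tested genes. The part of dentate or thalamic cells in the Prox1 values was not tested. Gbx2, the defining factor of the thalamus, was at 0.174 and 0 FPKM in the mutants and at 0 in both wild types, while Lhx9 had 1.65 and 1.22 FPKM in the mutants, against 0.301 and 0.244 FPKM in the wild types (limma adjusted p = 0.0737). Prox2, the paralogue of Prox1, had 0.860 and 0.987 FPKM in the mutants, against 1.07 and 1.01 FPKM in the wild types.

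Npas1 and Npas3 code for basic helix-loop-helix factors with PAS domains, which pair with Arnt proteins, and both are made in developing cortical interneurons, Npas3 also in progenitors. Npas1 (chromosome 7 from 16455721 to 16477728) had 9.47 and 7.60 FPKM in the mutants, against 7.45 and 7.81 FPKM in the wild types. The values overlapped, and mutant library 1 alone lay apart from the other 3. Its log2 fold change was 0.15 (95% interval -0.23 to 0.52, limma adjusted p = 0.650). Npas3 (chromosome 12 from 53248677 to 54072175) had 4.84 and 4.25 FPKM in the mutants, against 3.41 and 3.62 FPKM in the wild types. Both mutants were above both wild types, by a log2 fold change of 0.33 that did not pass (95% interval -0.08 to 0.73, limma adjusted p = 0.340). The partner genes Arnt and Arnt2 had log2 fold changes of 0.20 and 0.21 (limma adjusted p = 0.419 and 0.163).

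Adarb2 codes for a double-stranded RNA-binding protein of the adenosine deaminase family, is found mainly in brain, and marks CGE-derived interneurons in the mature mouse cortex. It lies on chromosome 13 from 8202866 to 8768747. Adarb2 had 9.51 and 11.1 FPKM in the mutants, against 3.32 and 1.83 FPKM in the wild types, from about 1000 and 1600 fragments in the mutants and about 410 and 170 in the wild types. Every mutant value was above every wild-type value. The mean was 10.3 ± 1.09 FPKM in the mutants and 2.57 ± 1.05 FPKM in the wild types (SD, n = 2 each), a log2 fold change of 1.85 (SE 0.27, 95% interval 1.16 to 2.54, limma adjusted p = 0.0375).

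Calls over all genes fell from 536 to 61 without the filter on low values and to 54 without the mean-variance trend. Most were also lost when any library was left out. The Adarb2 call likewise depended on all 4 libraries being present. Its adjusted p in limma was 0.140 without mutant library 1, 0.212 without mutant library 2, 0.103 without wild-type library 1 and 0.168 without wild-type library 2, with log2 fold changes from 1.49 to 2.21. It was 0.0544 with the replicate number as a block, 0.101 when all genes were kept and 0.0946 when the mean-variance trend was left out of the fit. Over all 12 alternatives it ran from 0.0347 to 0.212 and was under 0.05 in 5. In the authors' deposited table Adarb2 had a fold of 4.0 and a p-value of 0.0340, and it was the single member with a p-value under 0.05 there, a level that 1.83% of all genes in that table passed. Its paralogue Adarb1, an active editing enzyme, had 8.17 and 8.78 FPKM in the mutants, against 11.5 and 10.6 FPKM in the wild types (limma adjusted p = 0.186). Adarb2 stood at 1.16 and 1.26 times Adarb1 per length in the mutants, against 0.288 and 0.173 times in the wild types.

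Htr3a, which codes for a subunit of the serotonin-gated ion channel and defines the wider class of CGE-derived cortical interneurons, lies on chromosome 9 from 48899213 to 48911099. It had 5.21 and 4.44 FPKM in the mutants, against 4.70 and 3.74 FPKM in the wild types. The values of the genotypes interleaved. The log2 fold change was 0.18 (95% interval -0.28 to 0.64, limma adjusted p = 0.649). Htr3b, the other subunit gene searched for, was at 0 in both mutants and at 0 and 0.0577 FPKM in the wild types. Adarb2 was 1.82 and 2.49 times as high as Htr3a per length in the mutants, against 0.706 and 0.488 times in the wild types.

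Of the calcium-binding protein genes, Calb2 did not pass the test and Scgn was too low to be tested. Calb2, which codes for calretinin and is made by part of the CGE interneurons and also by Cajal-Retzius cells, lies on chromosome 8 from 110137502 to 110168210. It had 6.21 and 3.55 FPKM in the mutants, against 4.41 and 3.21 FPKM in the wild types, from about 40 to 89 fragments per library. Mutant library 1 was the highest, and mutant library 2 lay between the wild types. The log2 fold change was 0.29 with the widest 95% interval of the 8 genes, -0.48 to 1.06 (limma adjusted p = 0.658). Scgn, which codes for secretagogin and lies on chromosome 13 from 23953456 to 23991214, was at 0 and 0.0612 FPKM in the mutants and at 0 in both wild types. The single value above 0 was worth about 1.1 fragments, so a difference was not detectable at this depth, and Scgn was not tested.

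**Figure D1:**
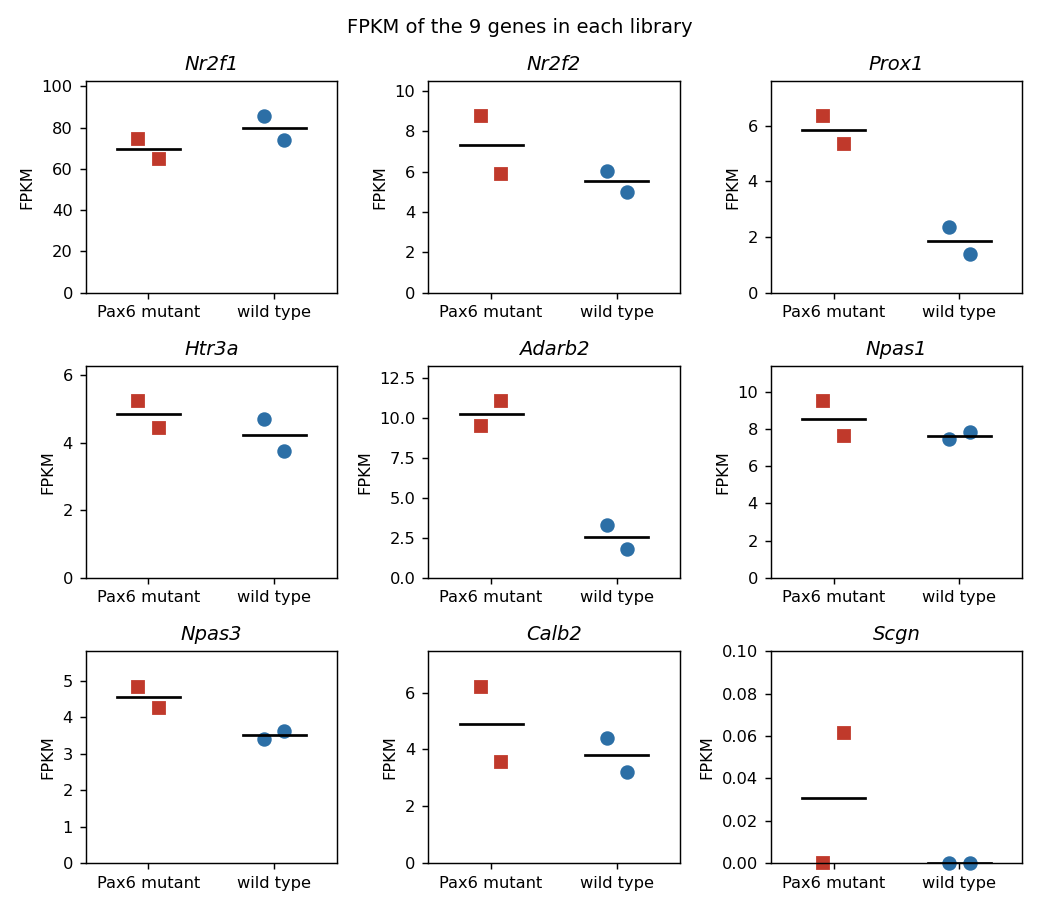
FPKM (y axis, linear from 0) of the 9 genes in each library, in which squares are Pax6 mutants, circles are wild types and horizontal lines are means of the 2 libraries. Adarb2 and Prox1 lie apart between the genotypes, at 9.51 and 11.1 against 3.32 and 1.83 FPKM and at 6.34 and 5.35 against 2.35 and 1.38 FPKM, while Nr2f1, Nr2f2, Htr3a, Npas1 and Calb2 overlap.

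The order of the genes by mean level differed between the genotypes. Nr2f1 was the highest in both, at 69.5 FPKM in the mutants and 79.9 FPKM in the wild types, and Scgn the lowest. Adarb2 held rank 2 of 9 in the mutants and rank 7 in the wild types, and Prox1 rank 5 in the mutants and rank 8 in the wild types. Below Adarb2 in the mutants, the ranges of neighbouring genes from Npas1 to Npas3 overlapped, so their order there is not resolved. In the wild types, Npas1 (rank 2) lay above Nr2f2 (rank 3) and Nr2f2 above Htr3a without overlap, and the ranges of Htr3a, Calb2 and Npas3 overlapped from neighbour to neighbour, as did those of Adarb2 and Prox1. The summed level of all 9 genes was 125 and 107 FPKM in the mutants, against 117 and 101 FPKM in the wild types, which overlap. With Nr2f1 left out, the sum of the other 8 genes was 50.4 and 42.2 FPKM in the mutants, against 31.7 and 26.6 FPKM in the wild types. With Adarb2 and Prox1 left out as well it was 34.5 and 25.8 FPKM in the mutants, against 26.0 and 23.4 FPKM in the wild types, which overlap again.

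General GABAergic genes rose in the mutants. In a list of 15 such genes 13 rose and 0 fell, with a median log2 fold change of 2.11. Gad1, which codes for a GABA-synthesizing enzyme, had 61.5 and 72.5 FPKM in the mutants, against 13.8 and 14.9 FPKM in the wild types (log2 fold change 2.18, limma adjusted p = 0.00466), and Gad2, the second such enzyme, had a log2 fold change of 1.76. The vesicular GABA transporter gene Slc32a1 had one of 1.88, and overlaps the antisense gene Gm14205, so its values are uncertain. Gad1 and Gad2 were not checked for such overlaps. The 95% intervals of Nr2f1, Nr2f2, Htr3a, Npas1, Npas3 and Calb2 included 0, and their upper ends ran from 0.07 to 1.06, all below the fold changes of Gad1 and Gad2.

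**Figure D2:**
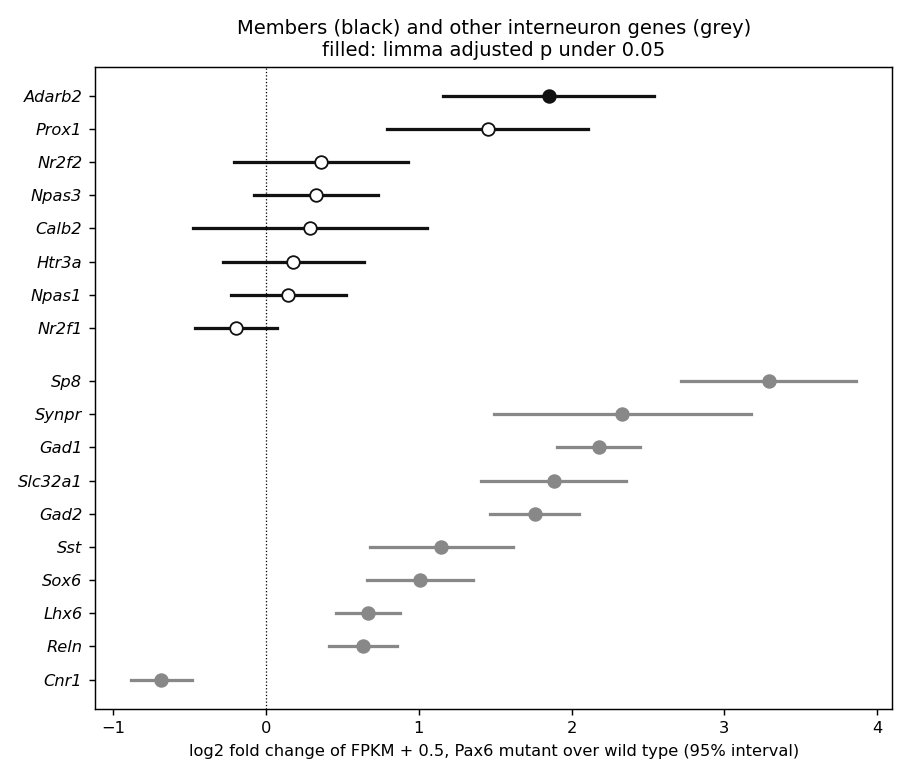
Log2 fold change of FPKM + 0.5, Pax6 mutant over wild type (x axis), with 95% intervals from limma, for the 8 tested members (black) and 10 other interneuron genes (grey), filled where the adjusted p was under 0.05. Adarb2 at 1.85 stands within the range of Gad1, Slc32a1 and Gad2 (1.76 to 2.18), Prox1 at 1.45 below it, and the other 6 members lie between -0.20 and 0.36.

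To set each member beside the GABAergic RNA of its own library, the mean log2 value of Gad1 and Gad2 was subtracted. For Adarb2 this relative level was -2.10 and -2.14 in the mutants, against -1.61 and -2.39 in the wild types, and the mutants lay between the wild types. The difference of means was -0.12 (exact permutation p = 1), and it was 0.0064 with a pseudocount of 0.1. For Prox1 the relative level was -2.65 and -3.12 in the mutants, against -2.03 and -2.70 in the wild types, a difference of -0.52 (exact permutation p = 0.667).

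The other 6 tested members were lower relative to Gad1 and Gad2 in both mutants than in both wild types, as were 98.5% of all tested genes. A gene with a level FPKM gives this separation because Gad1 and Gad2 themselves rose, so it is no trait of these 6. The differences were -2.17 for Nr2f1, -1.61 for Nr2f2, -1.79 for Htr3a, -1.82 for Npas1, -1.64 for Npas3 and -1.68 for Calb2 on the log2 scale. Each had p = 0.33 by exact two-sided permutation, which is as low as this design can go. Htr3a, for example, stood at -2.91 and -3.36 in the mutants, against -1.16 and -1.53 in the wild types. These differences share the same Gad1 and Gad2 values and are therefore not independent of each other.

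**Figure D3:**
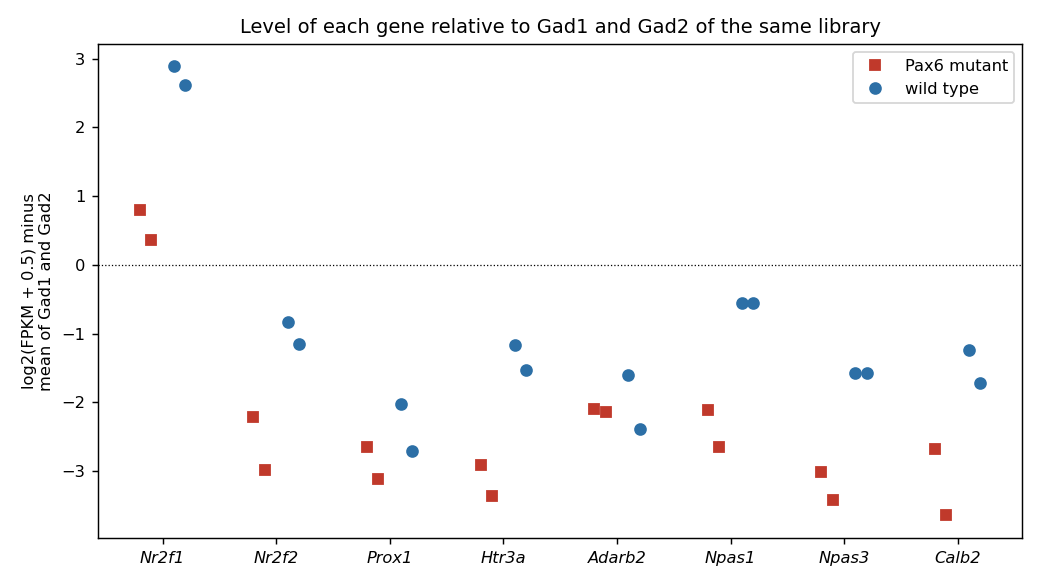
Log2(FPKM + 0.5) of each tested member minus the mean of Gad1 and Gad2 in the same library (y axis), with Pax6 mutants as squares and wild types as circles. The mutants lie below the wild types without overlap for Nr2f1, Nr2f2, Htr3a, Npas1, Npas3 and Calb2, a separation that 98.5% of all tested genes share because Gad1 and Gad2 rose, and overlap them for Adarb2 and Prox1.

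Further genes of CGE-derived interneurons went in both directions. Of 16 such genes outside the members, 11 were tested, 3 rose and 1 fell, with a median log2 fold change of -0.16. Those that rose were Sp8, a zinc finger factor, with 19.1 and 24.2 FPKM in the mutants, against 2.17 and 1.40 FPKM in the wild types (log2 fold change 3.29, limma adjusted p = 0.00845), the synaptic vesicle protein gene Synpr (2.33, limma adjusted p = 0.0354) and Reln, which codes for reelin (0.63, limma adjusted p = 0.0346). Sp8 and Synpr also mark olfactory bulb interneurons of the lateral ganglionic eminence and stood in that list too, and Reln marks Cajal-Retzius cells. Cnr1, the cannabinoid receptor gene, fell, with 58.4 and 52.4 FPKM in the mutants, against 87.1 and 91.5 FPKM in the wild types (log2 fold change -0.69, limma adjusted p = 0.0252). In the wild types it stood above Gad1 (13.8 and 14.9 FPKM), and which cells made Cnr1 RNA was not tested. Vip, the neuropeptide gene of a mature CGE class, was at 0 in both mutants, with 0 and 0.0934 FPKM in the wild types, while Crh, Lamp5, Tac2 and Htr3b were under the filter as well.

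Genes of interneurons from the medial ganglionic eminence were higher in part. Of 12 listed genes 8 were tested, 4 rose and 0 fell, with a median log2 fold change of 0.65. The LIM homeodomain factor gene Lhx6 had 40.5 and 43.7 FPKM in the mutants, against 27.4 and 25.4 FPKM in the wild types (0.67, limma adjusted p = 0.0289), and Sst, which codes for somatostatin, had a log2 fold change of 1.15. Sox6 and Nxph1 were the other genes that rose, by 1.01 and 0.71. Nkx2-1, the defining factor of that eminence, had 0.312 and 0.184 FPKM in the mutants, against 0.165 and 0.485 FPKM in the wild types, and Lhx8 had 0.0578 and 0.0528 FPKM in the mutants, against 0 in both wild types. In the list of the lateral ganglionic eminence and olfactory bulb lineage 10 of 15 tested genes rose and 0 fell, with a median of 1.49. The part of cells of that lineage in the members' values was not tested.

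Of the 13 paralogues and partners of the members, 9 were tested and 0 passed. An unadjusted p under 0.05 in limma was reached by 3 of the 9, beside 2997 of all 15399 tested genes. The log2 fold changes of the 9 ran from -0.36 to 0.43 with a median of -0.12. Calb1, which codes for calbindin, had the highest of these, with 3.19 and 1.73 FPKM in the mutants, against 1.54 and 1.72 FPKM in the wild types (limma adjusted p = 0.50), and as for Calb2 the high value was in mutant library 1. Pvalb, Ocm, Npas4 and Htr3b were under the filter.

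**Figure D4:**
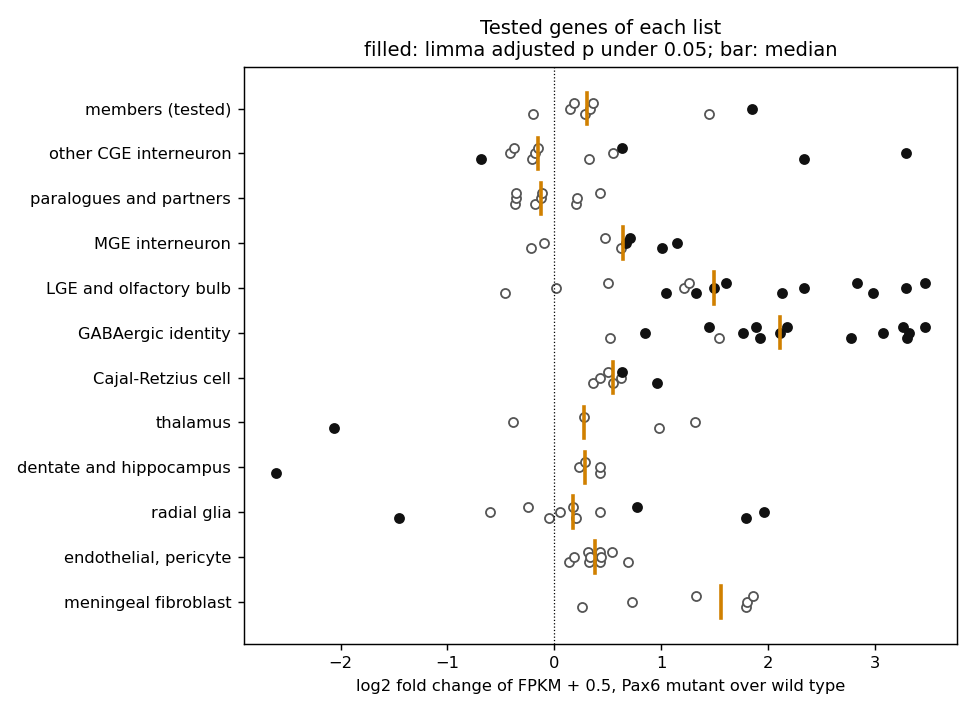
Log2 fold change of FPKM + 0.5, Pax6 mutant over wild type (x axis), of every tested gene in each list, filled where the limma adjusted p was under 0.05, with a bar at the list's median. The members lie at a median of 0.31, the other CGE interneuron genes at -0.16 and the paralogues and partners at -0.12. The medial ganglionic eminence list lies at 0.65, the lateral ganglionic eminence and olfactory bulb list at 1.49 and the GABAergic list at 2.11. Medians are 0.55 for Cajal-Retzius, 0.27 for thalamus and 0.28 for dentate and hippocampus. They are 0.17 for radial glia, 0.38 for endothelial and pericyte and 1.56 for meningeal fibroblast genes.

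Other cell types that make some of the members were not level across libraries. Of 8 Cajal-Retzius genes, which bear on Calb2, 7 were tested and 2 rose (Reln and Cacna2d2). All 7 had both mutants above both wild types, as did 25.8% of all tested genes. The summed level of the 8 was 102 and 119 FPKM in the mutants, against 70.8 and 68.1 FPKM in the wild types. Reln alone gave 68.2 and 79.0 FPKM of that sum in the mutants, against 47.1 FPKM in each wild type. The sum was highest in mutant library 2 and Calb2 in mutant library 1, with about 89 and 67 Calb2 fragments in mutant libraries 1 and 2. Endothelial and pericyte genes, which bear on Nr2f2, summed to 103 and 84.8 FPKM in the mutants, against 74.3 and 69.9 FPKM in the wild types. In that list 0 of 10 genes were called and 4 had an unadjusted p under 0.05 in limma. Meningeal fibroblast genes summed to 32.2 and 9.57 FPKM in the mutants, against 6.89 and 4.29 FPKM in the wild types. Of these, 0 of 6 tested genes were called and 3 had an unadjusted p under 0.05 in limma. Over all 15399 tested genes, 2997 had an unadjusted p at that level. Mutant library 1 was the highest in both vessel and meningeal genes, and it was also the higher of the mutant libraries for every tested member except Adarb2. Wild-type library 1 was likewise above wild-type library 2 in both sums and for every tested member except Npas1 and Npas3. The part of these cells in the members' values was not tested. Among 11 radial glial genes, which bear on Nr2f1 and Npas3, 3 rose and 1 fell (Tnc), with a median of 0.17. Those that rose were Sox2, Sox9 and Pax6, the mutated gene itself.

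Some of the members share bases with genes on the other strand, and strand-specific counting is not stated. The shared exonic stretch covered 2.42% of the exons of Nr2f1 (with A830082K12Rik), 7.46% of Nr2f2 (with B130024G19Rik), 1.59% of Prox1 (with Prox1os) and 1.38% of Npas3 (with 1700060O08Rik), and 0 bases of the other 5. Prox1os had 1.27 and 1.39 FPKM in the mutants, against 1.11 and 0.473 FPKM in the wild types. A830082K12Rik had 42.2 and 36.6 FPKM in the mutants, against 58.9 and 46.2 FPKM in the wild types, the same library order within each genotype as Nr2f1. The values of these 4 members are uncertain to the extent that fragments of the shared stretch were assigned to them.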

How the data were processed

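The authors deposited 1 table with an FPKM value per gene and library, group FPKM values, a p-value and a fold, the ratio of the group values, per the file headers. The builds GRCm38.p4 and mm10 and the tools Cufflinks 2.2.1, TopHat2 2.0.9 and edgeR appear in the submitters' processing notes without their roles. How the p-value was made and any scaling between libraries are not given in the sources used here. Gene symbols were matched by Ensembl identifier (22599 of 22770), and coordinates and exon lengths come from GENCODE M21 on GRCm38, counted from 1. The filter kept genes that reached 0.5 FPKM in 2 libraries or more. The test was limma 3.58.1 (R 4.3.3) on log2(FPKM + 0.5) (mean-variance trend, prior degrees of freedom 3.05), Benjamini-Hochberg adjusted over 15399 genes. Fold changes are mutant minus wild type on that scale and understate changes of low genes. The script was tested on simulated data. The members and lists were chosen with earlier results of these data known, the vessel, meningeal and projection neuron lists after the table was seen, and no list was tested as a set. Named genes are all members, their paralogues and partners, up to 4 genes of smallest p per list and a few lineage markers; others were chosen after their values were seen. Alternatives changed the pseudocount, filter, trend, scaling, a replicate block and the libraries kept.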

Additional observations from a re-analysis of the deposited data

How the results depend on the processing

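Of 15399 tested genes 536 passed, 311 higher and 225 lower in the mutants, with 1 member and 35 other genes of the lists that were written down at the start. With no filter on low values the counts were 61, 40, 21, 0 and 12, and without the mean-variance trend 54, 34, 20, 0 and 9. Leaving out 1 library at a time gave 7 to 59 genes, 6 to 31 higher and 1 to 28 lower, with 0 members and 2 to 14 other list genes; each such fit leaves a lone library in a group, which is assumed to vary like the other group. With the replicate number as a block 374 genes and 0 members passed, and the block moved no other of these counts by over 1.5 times; same-numbered libraries deviated together with r = 0.049 across genes, and nothing in the labels pairs them. Without the filter 2 members had an unadjusted p under 0.05 in limma, and 3 did without the trend or with the block. In the main fit 2 of the 8 tested members did, beside 2997 of all 15399 tested genes. The other pseudocounts, the stricter filter and both scalings kept 1 member called. Without mutant library 1 the log2 fold changes of Npas1 and Calb2 changed sign, to -0.0040 and -0.075 (up to 0.30 and 0.65 without mutant library 2), and with a pseudocount of 0.1 the Adarb2 level relative to Gad1 and Gad2 did so, to 0.0064; the cause was not tested. Depth limits Calb2 and Htr3a most among the tested members, at an estimated 40 to 89 and 56 to 100 fragments per library.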
